A study of Mus musculus with 12 samples.

Results

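The 10 genes described here encode the D-type cyclins (Ccnd1, Ccnd2 and Ccnd3), the kinases they activate (Cdk4 and Cdk6), the E-type cyclins (Ccne1 and Ccne2) and the retinoblastoma family of pocket proteins (Rb1, Rbl1 and Rbl2). They were taken by name, as 10 of the 18193 genes with a probe set annotated to a single symbol. Each was represented by its brightest probe set over the 12 arrays, and all 30 of its single-symbol probe sets were examined beside it. Expression was measured on Affymetrix arrays in sorted blood cells of C57Bl/6 mice aged 10 to 12 weeks. The populations were CD4+ T cells from spleen (2 arrays), PreMegE cells (4 arrays), multipotent progenitors (MPP, 3 arrays) and haematopoietic stem cells (HSC, 3 arrays), the last 3 from bone marrow. CD4+ T cells were sorted for CD4 without CD8, B220 or NK1.1. PreMegE cells, early progenitors of platelet-forming and red cells, carried Kit and CD150 and lacked lineage markers, Sca1, CD105 and CD41. MPP and HSC both lacked lineage markers and carried Kit and Sca1, with MPP negative for CD150 and positive for Flt3, and HSC the reverse.

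Cells commit to a new round of division late in the G1 phase. In textbook outline, mitogens and cytokines raise D-type cyclins, which activate CDK4 and CDK6, and these kinases phosphorylate the pocket proteins. Pocket proteins hold E2F transcription factors in check, and their phosphorylation lets E2F switch on S phase genes, including the E-type cyclins, which activate CDK2. In blood, CDK6 is known as a regulator of how stem cells leave quiescence, and cyclin D3 of the expansion of lymphocyte and red cell precursors.

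Values are log2 intensities, given as mean ± SD of arrays, and differences are log2 fold changes ± SE from limma, with p-values adjusted by Benjamini-Hochberg across the 18193 genes. The threshold for a call is an adjusted p of 0.05, and verbs of change and counts of genes refer to calls. Gene positions are those of RefSeq on build GRCm38.p6. Levels of different probe sets are not compared with each other. The design text takes the CD4+ T cell and the PreMegE data from previous work, 1 study each, so study and population cannot be told apart in any comparison other than that of MPP with HSC. HSC and MPP replicates were sorted separately, per the design text, but nothing says that any replicates came from separate mice, so a p-value here reflects only how these samples vary, which may be technical. The description of PreMegE replicate 4 calls it replicate 3, against its title, and it was kept as a separate sample. In bulk samples, fewer cells with a transcript and less of it per cell cannot be told apart.

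The HSC, MPP, PreMegE and T cell marker lists each had their highest mean level in the population they are named for. The mean level of 6 T cell markers was 10.24 to 10.30 on CD4+ T cell arrays, against 3.53 to 3.84 on all marrow arrays. That of 6 stem cell markers was 4.01 to 4.03 in CD4+ T cells, 4.12 to 4.37 in PreMegE cells, 6.71 to 6.82 in MPP and 8.01 to 8.04 in HSC. That of 6 MPP markers was 9.36 to 9.39 in MPP, against 8.14 to 8.29 in CD4+ T cells and 5.56 to 6.09 elsewhere. That of 6 PreMegE markers was 9.1 to 9.79 in PreMegE cells, against 8.4 to 8.48 in HSC and 5.05 to 6.25 elsewhere. Itga2b of the last list was at 10.54 in HSC and 8.45 in PreMegE cells, with its other members higher in PreMegE cells. Slamf1 of the stem cell list was at 7.16 in CD4+ T cells and 6.83 in HSC, with its other members highest in HSC. Satb1, Cd48 and Il7r of the MPP list were highest in CD4+ T cells, at 11.17, 10.22 and 11.64. In MPP they were at 9.79, 7.52 and 5.18, and Cd48 was at 8.15 in PreMegE cells. The other members of the MPP list, Flt3, Dntt and Cd34, were highest in MPP. Median intensities were 14.4 to 15.6 per array, and the correlation of 2 replicates across genes was 0.984 to 0.994. HSC replicate 2 stood apart in 7 neutrophil markers, whose mean level was 8.48 there against 5.48 and 5.27 on HSC replicates 1 and 3, 6.05 to 7.69 in PreMegE cells, 4.0 to 4.85 in MPP and 3.63 to 4.04 in CD4+ T cells. Xist, the RNA of the inactive X chromosome, was at 12.04 on HSC replicate 1 but at 2.45 and 2.59 on HSC replicates 2 and 3. It was at 11.9 to 12.15 in MPP, 11.16 to 12.44 in PreMegE cells and 10.91 to 10.97 in CD4+ T cells. HSC replicates 2 and 3 thus differed in Xist from every other array, and this difference lies within every comparison with HSC. B cell markers (5 measured) lay at 6.83 to 6.88 in CD4+ T cells, 3.75 to 5.07 in PreMegE cells, 5.31 to 5.43 in MPP and 4.22 to 5.31 in HSC. Red cell markers (3 measured) lay at 5.49 and 7.03 on the CD4+ T cell arrays and at 3.03 to 5.15 elsewhere. The part of these other cells in the results below was not tested.

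Of the 10 members, 5 to 7 were called in each of the 5 comparisons that involve CD4+ T cells or PreMegE cells, and 1 in MPP against HSC. In CD4+ T cells against PreMegE cells 1 member rose and 4 fell, where 33.1% of all genes were called (16.3% higher and 16.8% lower). Against MPP, 3 members rose and 4 fell in CD4+ T cells, with a background of 35.5% (15.5% higher and 20% lower). Against HSC, 2 rose and 5 fell in CD4+ T cells, with a background of 37.8% (17% higher and 20.8% lower). In PreMegE cells 3 members rose and 3 fell against MPP, where 33% of all genes were called (13.5% higher and 19.5% lower). Against HSC, 2 rose and 3 fell in PreMegE cells, with a background of 28.9% (11.9% higher and 17% lower). In MPP 0 rose and 1 fell against HSC, with a background of 11.3% (6.38% higher and 4.93% lower), which puts 1 of 10 members at about the share of all genes. The median difference of the 10 members was -0.19, -0.29 and -0.73 in CD4+ T cells against PreMegE cells, MPP and HSC, 0.09 and -0.36 in PreMegE cells against MPP and HSC, and -0.21 in MPP against HSC, where the median of all genes was between -0.06 and 0.02. Without HSC replicate 2 the members called were 8 in CD4+ T cells, 4 in PreMegE cells and 0 in MPP, each against HSC.

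**Figure D1:**
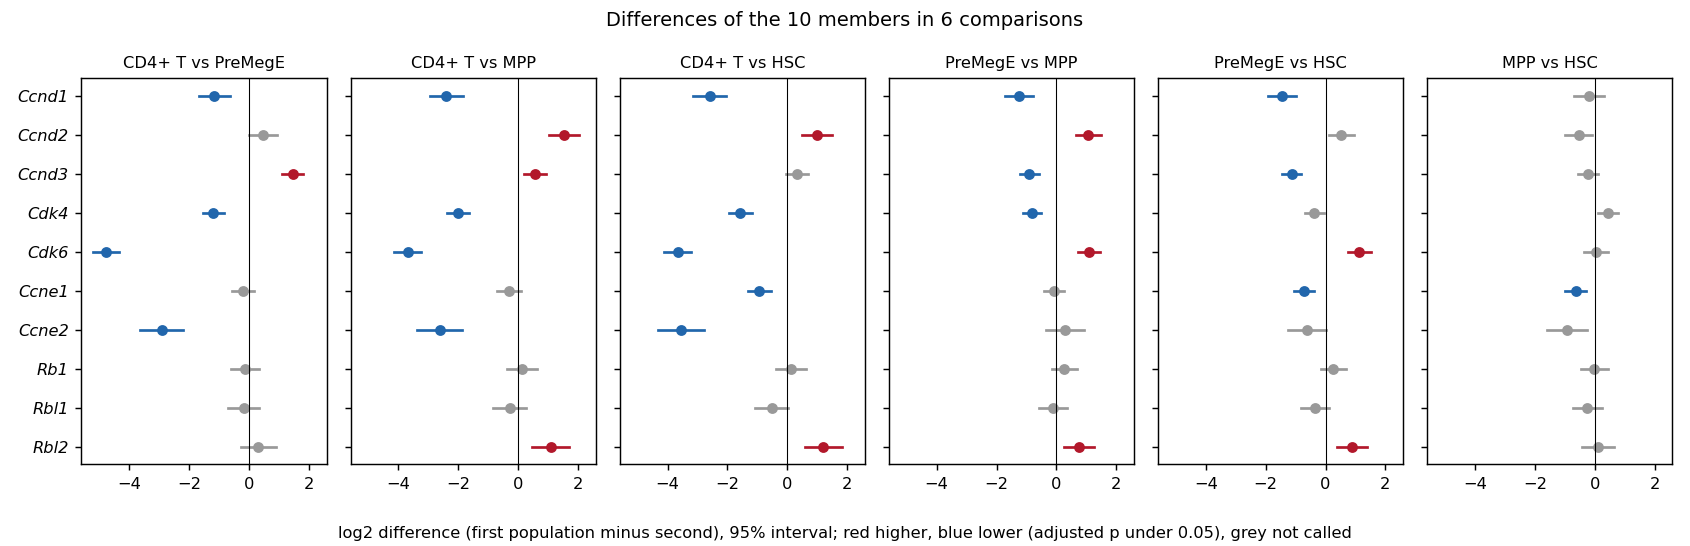
Log2 difference of each of the 10 members in the 6 comparisons, as the first population minus the second, with lines for the 95% interval of the limma fit. Red and blue mark genes called higher and lower, and grey marks genes not called; Cdk6 lies farthest from 0, at -4.78 in CD4+ T cells against PreMegE cells, and Rb1 is grey in all 6 panels.

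The 3 D-type cyclins had 3 different orders over the populations. Ccnd1 was lowest in CD4+ T cells, Ccnd2 was highest there, and Ccnd3 was lowest in PreMegE cells. D-type cyclins are the regulatory subunits through which outside signals reach CDK4 and CDK6, and most cell types use a mix of them.

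Ccnd1 (chromosome 7, 144929931 to 144939831), which encodes cyclin D1, was at 5.31 and 4.45 in CD4+ T cells, 6.11, 6.35, 5.48 and 6.19 in PreMegE cells, 7.26, 7.23 and 7.35 in MPP, and 7.55, 7.63 and 7.24 in HSC. All CD4+ T cell values lay below all PreMegE values, and these below all MPP and HSC values, whereas MPP and HSC overlapped. Means were 4.88 ± 0.61 in CD4+ T cells (n = 2), 6.03 ± 0.38 in PreMegE cells (n = 4), 7.28 ± 0.06 in MPP (n = 3) and 7.48 ± 0.21 in HSC (n = 3). Ccnd1 fell by 2.59 ± 0.26 in CD4+ T cells against HSC, 6.04-fold lower (adjusted p = 9.16e-07), and by 2.40 ± 0.26 against MPP (adjusted p = 2.34e-06). It fell by 1.45 ± 0.22 in PreMegE cells against HSC, 2.72-fold lower (adjusted p = 0.000124), and by 1.25 ± 0.22 against MPP (adjusted p = 0.000341). The difference of CD4+ T cells from PreMegE cells was -1.15 ± 0.25 (adjusted p = 0.00176), a call that ended without CD4+ T cell replicate 2 (-0.72, adjusted p = 0.0718). MPP and HSC did not differ detectably (-0.19, 95% interval -0.70 to 0.31, adjusted p = 0.724).

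Of the 3 Ccnd1 probe sets, the dimmest was called lower in the same comparisons as the brightest except CD4+ T cells against PreMegE cells (-0.37, adjusted p = 0.339), with -1.24 ± 0.22 in PreMegE cells against MPP and -1.80 ± 0.26 in CD4+ T cells against HSC. The middle one was flatter. On it the falls in CD4+ T cells against PreMegE cells (-0.77, adjusted p = 0.0774) and HSC (-0.78, adjusted p = 0.0816) and in PreMegE cells against MPP (-0.49, adjusted p = 0.201) and HSC (-0.01, adjusted p = 0.991) did not pass.

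Ccnd2 (chromosome 6, 127125162 to 127152188), which encodes cyclin D2, the D-type cyclin known to be induced by cytokines and antigen in lymphocytes, ran close to the reverse. It was at 10.89 and 11.65 in CD4+ T cells, 10.79, 10.62, 11.11 and 10.70 in PreMegE cells, 9.81, 9.55 and 9.88 in MPP, and 9.99, 10.27 and 10.58 in HSC. CD4+ T cells and PreMegE cells overlapped, HSC lay below both without overlap, and MPP lay below HSC without overlap. Means were 11.27 ± 0.54 in CD4+ T cells, 10.80 ± 0.21 in PreMegE cells, 9.75 ± 0.17 in MPP and 10.28 ± 0.30 in HSC (n = 2, 4, 3 and 3). Ccnd2 rose by 1.52 ± 0.24 in CD4+ T cells against MPP, 2.87-fold (adjusted p = 8.63e-05), and by 1.06 ± 0.20 in PreMegE cells against MPP, 2.08-fold (adjusted p = 0.00058). Against HSC it rose by 0.99 ± 0.24 in CD4+ T cells (adjusted p = 0.00332), a call that ended without CD4+ T cell replicate 2 (0.60, adjusted p = 0.0954).

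Neighbouring populations in that order did not pass on the brightest Ccnd2 probe set. The difference was 0.47 in CD4+ T cells against PreMegE cells (95% interval -0.01 to 0.94, adjusted p = 0.136), 0.52 in PreMegE cells against HSC (0.10 to 0.94, adjusted p = 0.0627) and -0.54 in MPP against HSC (-0.99 to -0.08, adjusted p = 0.131). The first was 0.85 without CD4+ T cell replicate 1, which passed (adjusted p = 0.018), and 0.08 without replicate 2 (0.875), and it passed after cyclic loess normalization (0.63, adjusted p = 0.0304). The second passed without HSC replicate 3 (0.67, adjusted p = 0.0306), without either CD4+ T cell array (0.0316 each) and after quantile (0.0183) or cyclic loess normalization (0.036). Of the 7 Ccnd2 probe sets, all 7 were called higher in CD4+ T cells and in PreMegE cells against MPP. Against HSC, 6 of 7 were called higher in CD4+ T cells and 6 of 7 in PreMegE cells, the brightest being the exception in PreMegE cells. Between MPP and HSC 1 of 7 was called, at -1.01 ± 0.21 (adjusted p = 0.0098). In CD4+ T cells against PreMegE cells 2 of 7 were called higher, at 0.99 ± 0.22 (adjusted p = 0.00418) and 1.26 ± 0.26 (adjusted p = 0.00228). There the mean of all Ccnd2 probe sets passed too (0.57, adjusted p = 0.0194).

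Ccnd3 (chromosome 17, 47505051 to 47599689), which encodes cyclin D3, was at 9.26 and 9.29 in CD4+ T cells, 7.73, 7.71, 8.01 and 7.80 in PreMegE cells, 8.75, 8.60 and 8.78 in MPP, and 8.96, 9.18 and 8.69 in HSC. PreMegE cells lay below every other array. CD4+ T cells lay above every other array, while MPP and HSC overlapped. Means were 9.28 ± 0.02 in CD4+ T cells, 7.81 ± 0.14 in PreMegE cells, 8.71 ± 0.10 in MPP and 8.94 ± 0.25 in HSC. In PreMegE cells Ccnd3 fell by 0.90 ± 0.15 against MPP (adjusted p = 0.000157) and by 1.13 ± 0.15 against HSC, 2.19-fold lower (adjusted p = 2.5e-05). In CD4+ T cells it rose by 1.46 ± 0.16 against PreMegE cells, 2.76-fold (adjusted p = 2.97e-06), and by 0.56 ± 0.17 against MPP (adjusted p = 0.0176). The last call ended without either CD4+ T cell array (adjusted p = 0.0632 without replicate 1 and 0.0861 without replicate 2) or MPP replicate 2 (0.0629). Against HSC it did not pass in CD4+ T cells (0.33 higher, adjusted p = 0.156) or in MPP (-0.23, 95% interval -0.56 to 0.10, adjusted p = 0.439).

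The second brightest Ccnd3 probe set gave PreMegE cells another place. It was at 8.18 and 7.39 in CD4+ T cells, 6.54, 7.03, 6.70 and 6.65 in PreMegE cells, 5.80, 6.21 and 5.86 in MPP, and 6.66, 5.90 and 5.72 in HSC. On it PreMegE cells were higher than MPP (0.77 ± 0.24, adjusted p = 0.0298), opposite to the brightest, and 0.64 above HSC without passing (adjusted p = 0.0824). CD4+ T cells were higher than every marrow population on this probe set, by 1.05 ± 0.27 to 1.83 ± 0.29. The fall of Ccnd3 in PreMegE cells therefore rests on the brightest probe set.

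**Figure D2:**
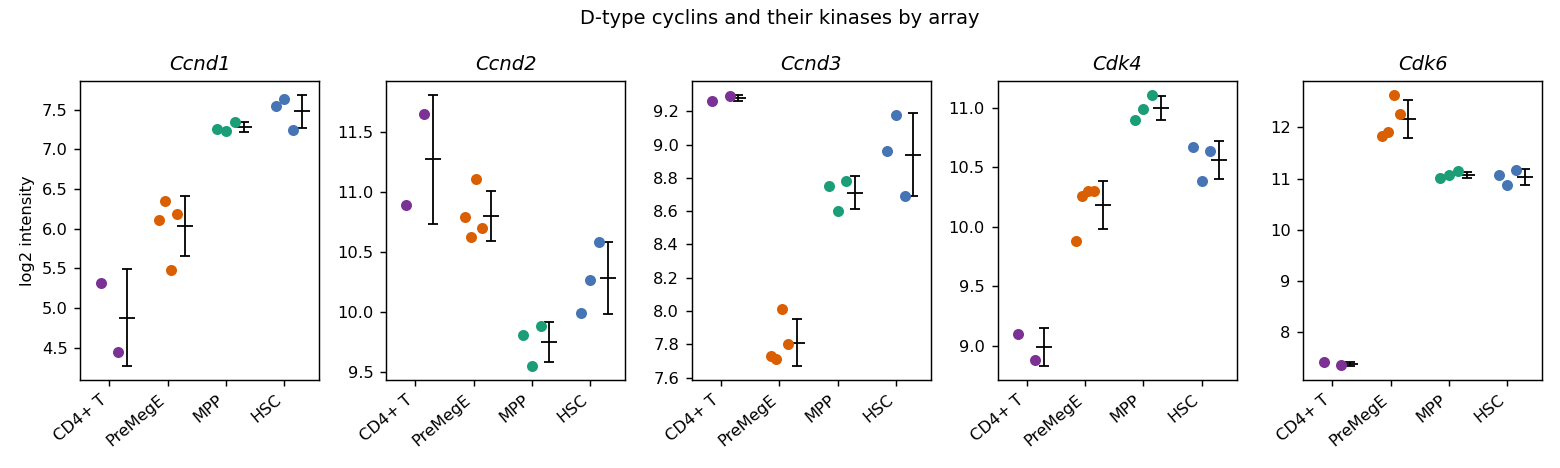
Log2 intensity of the brightest probe set of Ccnd1, Ccnd2, Ccnd3, Cdk4 and Cdk6 on each of the 12 arrays, with 1 point per array and the mean ± SD beside the points of each population; each panel has its own scale. Cdk6 lies at 7.36 to 7.41 in CD4+ T cells and at 11.83 to 12.64 in PreMegE cells, and Cdk4 is highest in MPP.

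Cdk4 and Cdk6 encode the 2 closely related kinases that D-type cyclins activate. Both were lowest in CD4+ T cells, but in PreMegE cells they moved in opposite directions against MPP. Cdk6 (chromosome 5, 3341004 to 3531008) was at 7.41 and 7.36 in CD4+ T cells, 11.83, 11.91, 12.64 and 12.27 in PreMegE cells, 11.01, 11.07 and 11.14 in MPP, and 11.06, 10.88 and 11.17 in HSC. PreMegE cells lay above and CD4+ T cells below all other arrays, and MPP and HSC overlapped. Means were 7.38 ± 0.04 in CD4+ T cells, 12.16 ± 0.37 in PreMegE cells, 11.07 ± 0.06 in MPP and 11.03 ± 0.15 in HSC.

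Cdk6 fell by 4.78 ± 0.20 in CD4+ T cells against PreMegE cells, 27.5-fold lower (adjusted p = 3.51e-11). Against MPP and HSC the fall was 3.69 ± 0.21 and 3.65 ± 0.21, 12.9-fold and 12.6-fold lower (adjusted p = 1.67e-09 each). In PreMegE cells Cdk6 rose by 1.09 ± 0.18 against MPP (adjusted p = 0.000177) and by 1.13 ± 0.18 against HSC (adjusted p = 0.000173), 2.13-fold and 2.18-fold. MPP and HSC did not differ detectably (0.04, 95% interval -0.37 to 0.44, adjusted p = 0.948). The second probe set gave 1.48 ± 0.17 and 1.52 ± 0.17 for the rises and -4.93 ± 0.19 for the fall against PreMegE cells. The third, much dimmer, fell in CD4+ T cells by 0.81 ± 0.24 to 0.93 ± 0.25 and was not called in PreMegE cells.

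Cdk4 (chromosome 10, 127063535 to 127067288) was at 9.10 and 8.88 in CD4+ T cells, 9.88, 10.26, 10.30 and 10.30 in PreMegE cells, 10.90, 10.99 and 11.11 in MPP, and 10.67, 10.38 and 10.64 in HSC. The 4 populations did not overlap on these arrays, with MPP highest, then HSC, PreMegE cells and CD4+ T cells. Means were 8.99 ± 0.16 in CD4+ T cells, 10.18 ± 0.20 in PreMegE cells, 11 ± 0.10 in MPP and 10.56 ± 0.16 in HSC. Cdk4 fell by 1.19 ± 0.17 in CD4+ T cells against PreMegE cells (adjusted p = 3.26e-05), by 2.01 ± 0.18 against MPP, 4.02-fold lower (adjusted p = 2.09e-07), and by 1.57 ± 0.18 against HSC (adjusted p = 2.87e-06). In PreMegE cells it fell by 0.82 ± 0.15 against MPP (adjusted p = 0.000449). The neighbours on either side of HSC did not pass, at -0.38 in PreMegE cells against HSC (95% interval -0.69 to -0.06, adjusted p = 0.0714) and 0.44 in MPP against HSC (0.10 to 0.78, adjusted p = 0.0972). All 3 Cdk4 probe sets were called lower in CD4+ T cells against each marrow population and lower in PreMegE cells against MPP. In PreMegE cells against HSC the dimmest was called lower (-0.80 ± 0.18, adjusted p = 0.00603), and the difference passed on the mean of the 3 (-0.44, adjusted p = 0.0228) and, for the brightest, after cyclic loess normalization (-0.35, adjusted p = 0.048).

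The 250 bases before an annotated transcript start of Cdk4 and of Cdk6 are shown because the pair differed in direction in PreMegE cells. The Cdk4 window ends at the start of the gene as positioned above, whereas the Cdk6 window lies inside the span given for that gene, before a transcript start downstream of the first base of the span. They come from RefSeq on build GRCm38.p6, where 6 of the 10 members matched. Capitals mark the E-box CACGTG, the binding motif of MYC and related factors, and TTTNNCGC, the pattern used here for E2F, with N any base. Each was searched on both strands.
Cdk4, chr10:127063285-127063534, plus strand: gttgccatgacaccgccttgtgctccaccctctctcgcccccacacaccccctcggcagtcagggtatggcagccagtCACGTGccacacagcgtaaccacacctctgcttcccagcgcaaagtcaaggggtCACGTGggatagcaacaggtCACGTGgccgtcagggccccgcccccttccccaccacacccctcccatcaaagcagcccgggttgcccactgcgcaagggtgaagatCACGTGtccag
Cdk6, chr5:3343643-3343892, plus strand: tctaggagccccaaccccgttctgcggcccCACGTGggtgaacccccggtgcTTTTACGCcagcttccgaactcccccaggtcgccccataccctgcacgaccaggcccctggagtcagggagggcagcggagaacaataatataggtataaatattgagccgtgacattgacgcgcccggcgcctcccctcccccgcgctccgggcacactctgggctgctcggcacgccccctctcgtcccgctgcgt
The Cdk4 window held 4 E-boxes and no E2F match, and 7 of 32851 windows of this length (0.0213%) held at least 4. The Cdk6 window held 1 E-box and 1 E2F match. At least 1 E-box was found in 6.02% of all windows and at least 1 E2F match in 4.28%. The E-box was added to the search after the Cdk4 sequence had been seen, and a match is a string of letters, not a measured binding site.

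E-type cyclins activate CDK2 at the entry into S phase. Ccne1 was highest in HSC and Ccne2 was far lower in CD4+ T cells than in marrow. Ccne1 (chromosome 7, 38097984 to 38107490), which encodes cyclin E1, was at 6.90 and 6.52 in CD4+ T cells, 7.11, 6.97, 6.64 and 6.98 in PreMegE cells, 7.0, 6.96 and 7.07 in MPP, and 7.68, 7.79 and 7.48 in HSC. Every HSC array lay above every other array, and the other populations overlapped one another except CD4+ T cells and MPP. Means were 6.71 ± 0.27 in CD4+ T cells, 6.92 ± 0.20 in PreMegE cells, 7.01 ± 0.06 in MPP and 7.65 ± 0.16 in HSC.

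Against HSC, Ccne1 fell by 0.93 ± 0.18 in CD4+ T cells (adjusted p = 0.000611), by 0.72 ± 0.15 in PreMegE cells (adjusted p = 0.00181) and by 0.64 ± 0.16 in MPP, 1.55-fold lower (adjusted p = 0.0184). The last was the 1 member called between MPP and HSC. The call was lost on leaving out HSC replicate 1 (adjusted p = 0.055), HSC replicate 2 (0.0763) or any 1 MPP array (0.051 to 0.0677), while the difference stayed between -0.67 and -0.57. The dimmer Ccne1 probe set was called lower in PreMegE cells against HSC too (-0.85 ± 0.13, adjusted p = 0.000404), and against MPP (-0.62 ± 0.13, adjusted p = 0.00305). It gave -0.23 in MPP against HSC (not called) and 0.06 in CD4+ T cells against HSC, so the falls in those populations rest on the brighter probe set. On the dimmer one CD4+ T cells were higher than PreMegE cells by 0.91 ± 0.15 (adjusted p = 0.000384).

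Ccne2 (chromosome 4, 11190433 to 11204779), which encodes cyclin E2 and has 1 probe set, was at 2.53 and 2.63 in CD4+ T cells, 4.92, 5.79, 6.07 and 5.23 in PreMegE cells, 5.15, 4.96 and 5.51 in MPP, and 5.68, 5.79 and 6.93 in HSC. CD4+ T cells lay below all marrow arrays, and under the lower quartile over genes of that population (3.27), so the signal there may not be above background and the differences give no exact fold. The differences in CD4+ T cells were -2.92 ± 0.34 against PreMegE cells (adjusted p = 4.21e-06), -2.62 ± 0.36 against MPP (adjusted p = 2.33e-05) and -3.55 ± 0.36 against HSC (adjusted p = 8.41e-07). Means in marrow were 5.50 ± 0.53 in PreMegE cells, 5.20 ± 0.28 in MPP and 6.13 ± 0.69 in HSC. In MPP against HSC the arrays did not overlap, but the difference of -0.93 did not pass (95% interval -1.61 to -0.24, adjusted p = 0.0806) and was -0.53 without HSC replicate 3. The others were -0.63 in PreMegE cells against HSC (adjusted p = 0.141), which was -0.23 without HSC replicate 3, and 0.30 in PreMegE cells against MPP (adjusted p = 0.507).

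**Figure D3:**
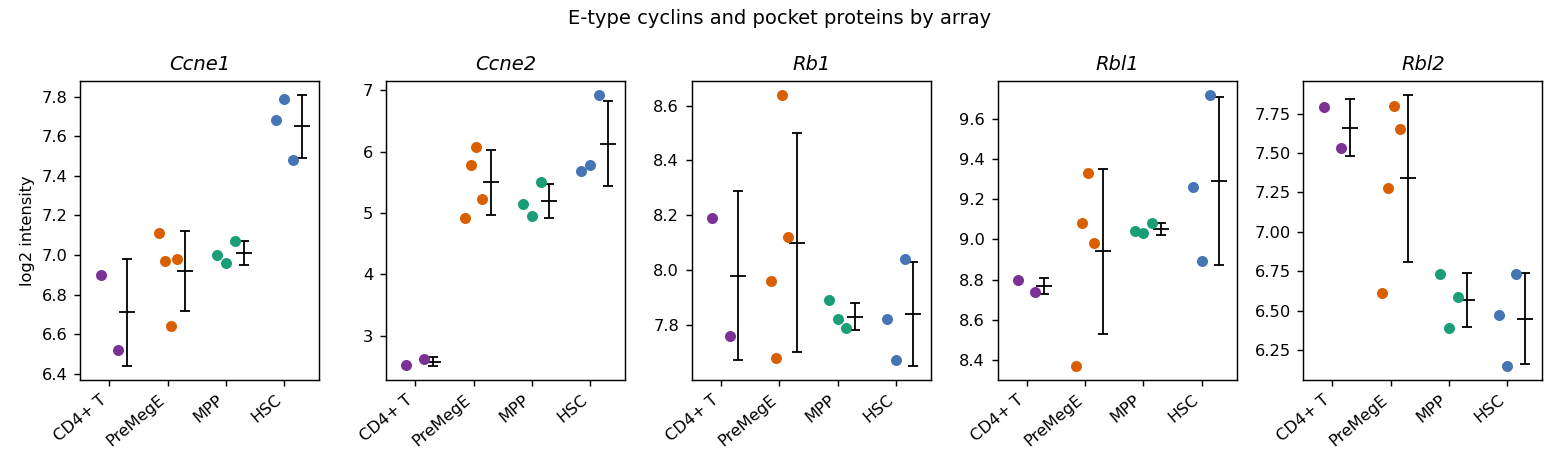
Log2 intensity of the brightest probe set of Ccne1, Ccne2, Rb1, Rbl1 and Rbl2 on each array, with 1 point per array and the mean ± SD beside the points of each population; each panel has its own scale. Ccne2 lies at 2.53 and 2.63 in CD4+ T cells and between 4.92 and 6.93 in the marrow populations, Ccne1 is highest in HSC, and Rb1 arrays of all populations overlap.

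Pocket proteins bind E2F factors and repress their targets. RB1 binds the activating E2Fs, whereas RBL1 (p107) and RBL2 (p130) bind the repressive E2F4 and E2F5, with p130 known to predominate in resting cells. Rb1 was called in 0 of the 6 comparisons on its brightest probe set, Rbl2 was higher in CD4+ T cells and PreMegE cells, and Rbl1 gave different answers by probe set.

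Rb1 (chromosome 14, 73192858 to 73325951) was at 8.19 and 7.76 in CD4+ T cells, 7.96, 7.68, 8.64 and 8.12 in PreMegE cells, 7.89, 7.82 and 7.79 in MPP, and 7.82, 7.67 and 8.04 in HSC. Its means were between 7.83 in MPP and 8.10 in PreMegE cells, and all populations overlapped. None of the 6 differences passed, with adjusted p-values of 0.349 to 0.991. The widest difference was 0.27 in PreMegE cells against MPP (95% interval -0.15 to 0.69), and the intervals of the 6 lay within -0.60 and 0.69. The other Rb1 probe set, dim with means of 2.65 to 3.36, was called in 1 of the 6, lower in PreMegE cells against MPP (-0.71 ± 0.21, adjusted p = 0.023), opposite to the brightest.

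Rbl2 (chromosome 8, 91070057 to 91123844) was at 7.79 and 7.53 in CD4+ T cells, 6.61, 7.28, 7.80 and 7.65 in PreMegE cells, 6.73, 6.39 and 6.59 in MPP, and 6.47, 6.15 and 6.73 in HSC. CD4+ T cells lay above all MPP and HSC arrays, and 3 of 4 PreMegE arrays did so too. Means were 7.66 ± 0.18 in CD4+ T cells, 7.34 ± 0.53 in PreMegE cells, 6.57 ± 0.17 in MPP and 6.45 ± 0.29 in HSC. In CD4+ T cells Rbl2 rose by 1.09 ± 0.28 against MPP (adjusted p = 0.00643) and by 1.21 ± 0.28 against HSC, 2.31-fold (adjusted p = 0.00289). In PreMegE cells it rose by 0.77 ± 0.24 against MPP (adjusted p = 0.0213) and by 0.89 ± 0.24 against HSC (adjusted p = 0.0103). CD4+ T cells and PreMegE cells did not differ detectably (0.32, adjusted p = 0.428), nor did MPP and HSC (0.12, 95% interval -0.42 to 0.66, adjusted p = 0.856).

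Several Rbl2 calls depended on 1 array. In CD4+ T cells against MPP the call ended without CD4+ T cell replicate 1 (0.96, adjusted p = 0.0603). In PreMegE cells against MPP it ended without MPP replicate 2 (adjusted p = 0.0933) or 3 (0.057) or PreMegE replicate 3 (0.0564) or 4 (0.0666), or with these PreMegE arrays averaged (0.63, adjusted p = 0.0583), and against HSC without HSC replicate 2 (0.74, adjusted p = 0.0576). The dimmer Rbl2 probe set, with means of 3.96 to 4.63, was called in 0 of the 6 comparisons.

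Rbl1 (chromosome 2, 157145893 to 157204534) was at 8.80 and 8.74 in CD4+ T cells, 8.37, 9.08, 9.33 and 8.98 in PreMegE cells, 9.04, 9.03 and 9.08 in MPP, and 9.26, 8.89 and 9.72 in HSC. None of the 6 differences passed on this probe set (adjusted p = 0.136 to 0.756), the widest being -0.52 in CD4+ T cells against HSC (95% interval -1.07 to 0.03). That one passed without HSC replicate 2 (-0.72, adjusted p = 0.0427) and was -0.30 without HSC replicate 3. The second probe set, dimmer, was at 4.75 and 3.93 in CD4+ T cells, 4.17, 4.55, 4.75 and 3.87 in PreMegE cells, 6.52, 6.69 and 6.39 in MPP, and 5.32, 5.33 and 5.94 in HSC. On it MPP lay above all other arrays, and HSC above PreMegE cells and CD4+ T cells. It was called lower in CD4+ T cells against MPP (-2.19 ± 0.29, adjusted p = 6.64e-05) and HSC (-1.19 ± 0.29, adjusted p = 0.00697). It was also called lower in PreMegE cells against MPP (-2.20 ± 0.25, adjusted p = 1.9e-05) and HSC (-1.19 ± 0.25, adjusted p = 0.00321), and higher in MPP against HSC (1.00 ± 0.26, adjusted p = 0.0349). Which transcripts the probe sets detect is not given in the sources used here.

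The window before the start of Rbl1 is shown because p107 is both a partner and, as background, a target of E2F, and it held 2 E2F matches at its end.
Rbl1, chr2:157204535-157204784, minus strand: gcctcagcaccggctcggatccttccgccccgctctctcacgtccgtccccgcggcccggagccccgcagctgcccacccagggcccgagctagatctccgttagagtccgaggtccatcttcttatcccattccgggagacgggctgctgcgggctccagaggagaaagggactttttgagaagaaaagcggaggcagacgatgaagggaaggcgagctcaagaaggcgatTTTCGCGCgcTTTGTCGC
Capitals mark the 2 matches to TTTNNCGC, whose first bases lie 18 and 8 bases before the start. At least 2 such matches were found in 74 of 32851 windows (0.225%). Of the 6 members with a window, 2 held this E2F pattern (Cdk6 and Rbl1). It was held by 7 of 18 genes of the E2F target list described below (38.9%) and by 4.94% of all genes.

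Probe sets of 1 gene were compared in a fit over 45037 probe sets, in which 25.3%, 28.5% and 29.4% were called in CD4+ T cells against PreMegE cells, MPP and HSC, 26.2% and 20.7% in PreMegE cells against MPP and HSC, and 7.42% in MPP against HSC. Every probe set of Cdk4 and of Cdk6 was called lower in CD4+ T cells against each marrow population, 3 of 3 for each gene. Ccnd2 was called in the same direction by all 7 in CD4+ T cells and PreMegE cells against MPP. Called probe sets of 1 gene opposed each other for Ccnd3, in PreMegE cells against MPP (1 higher and 1 lower) and in CD4+ T cells against HSC (1 higher and 1 lower).

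**Figure D4:**
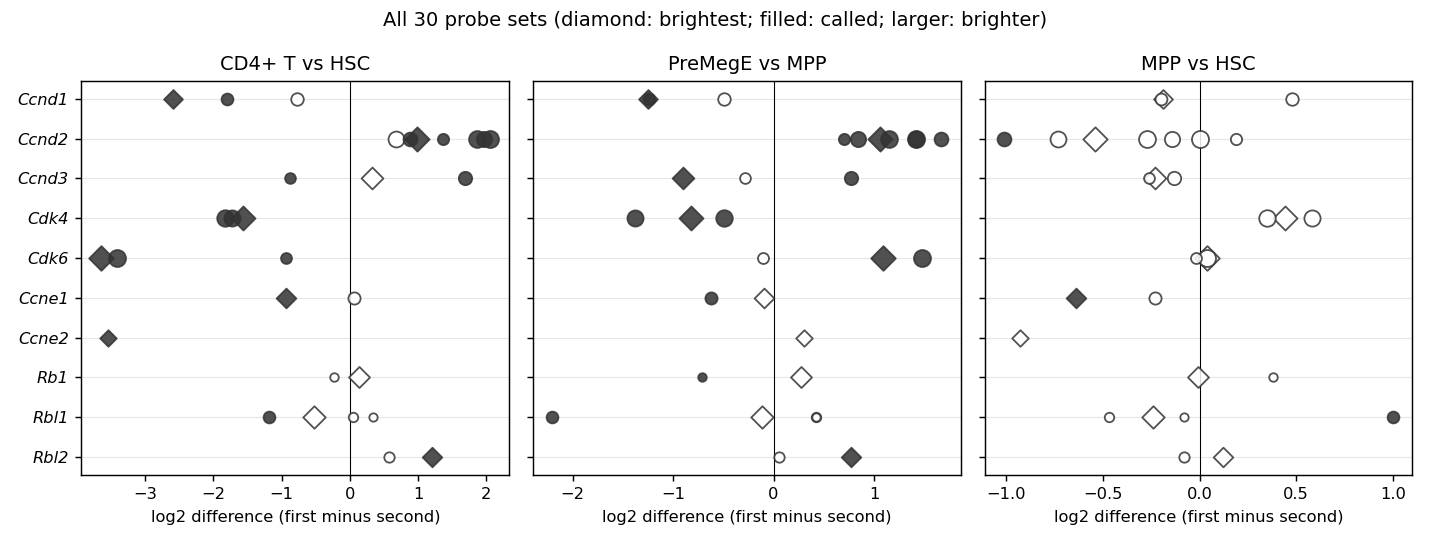
Log2 difference of all 30 probe sets of the members in 3 comparisons, as the first population minus the second, with a diamond for the brightest probe set of a gene, filled symbols for called probe sets and larger symbols for brighter ones. The 7 Ccnd2 and 3 Cdk4 probe sets lie on 1 side of 0 in CD4+ T cells against HSC and in PreMegE cells against MPP, whereas Ccnd3 and Rbl1 probe sets lie on both sides.

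For the 7 members whose population means spanned at least 1 log2 unit, the genes with the most similar profile were found by the root mean square difference of the 4 population means after centring. This is a description over 4 populations. Ccnd1 was closest to Fbxw8 (0.06), Gm34703 (0.08) and Trmt61a (0.09), and Ccnd2 to Apbb1ip (0.03), Nlk (0.04) and Zfp952 (0.05). Ccnd3 was closest to Parp14 and Slc44a2 (0.06 each) and Alg1 (0.07), and Cdk4 to Rsrc1 (0.03), Capn5 (0.07) and Nkapd1 (0.08). Ccne2 was closest to Ndrg1 (0.06), BC055324 (0.07) and Mtfp1 (0.10), and Rbl2 to Zfp672, 4632415L05Rik and Rpl11 (0.04 each). Cdk6 had the fewest similar genes, with 9 of 6395 within 0.3, against 44 to 546 for the other 6 members. The difference was not scaled to the span of the means, so this count depends on the span as well as on the shape. The span was 4.78 for Cdk6 and 1.21 to 3.55 for the other 6. The genes nearest to Cdk6 were Gatm (0.13), Myb and Gsto1 (0.19 each). Myb, a transcription factor of blood progenitors, was at 8.36 in CD4+ T cells, 12.62 in PreMegE cells, 11.83 in MPP and 11.84 in HSC.

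The other genes of the G1 to S network were described in 6 lists, with 62 of 65 genes measured. In CD4+ T cells 7 rose and 37 fell against PreMegE cells, 8 rose and 42 fell against MPP, and 7 rose and 41 fell against HSC. In PreMegE cells 9 rose and 26 fell against MPP, and 7 rose and 23 fell against HSC. In MPP 4 rose and 6 fell against HSC. The share called was 71%, 80.6% and 77.4% in CD4+ T cells, 56.5% and 48.4% in PreMegE cells and 16.1% in MPP, beside the shares of all genes given above. Without HSC replicate 2 the counts called were 6 in MPP against HSC and 25 in PreMegE cells against HSC, in place of 10 and 30, and leaving out any 1 MPP array gave 5 or 6 in MPP against HSC.

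E2F targets of S phase entry, the genes of DNA replication that free E2F switches on, fell in CD4+ T cells. Of 19 measured, 0 rose in any of the 6 comparisons. In CD4+ T cells 16 fell against PreMegE cells, 18 against MPP and 18 against HSC, with medians of -1.62, -2.26 and -2.11. Cdc6, which loads the replicative helicase, changed by -4.01 ± 0.21, -4.56 ± 0.22 and -5.10 ± 0.22 in these comparisons, and Uhrf1, a maintenance factor of DNA methylation, by -4.34 ± 0.20 against HSC. In PreMegE cells 12 fell against MPP and 10 against HSC (medians -0.55 and -0.82). Tk1, a thymidine kinase, changed by -1.51 ± 0.18 and -1.93 ± 0.18 there. The primase Prim1 fell by 1.49 ± 0.14 against HSC, with -0.32 on its next brightest probe set (adjusted p = 0.318), and Uhrf1 by 1.63 ± 0.17 against MPP. In MPP against HSC 1 fell, the ribonucleotide reductase subunit Rrm2 (-0.92 ± 0.21, adjusted p = 0.00788), and the list had a median of -0.07. The Rrm2 call ended on its next brightest probe set (-0.36, adjusted p = 0.315) and on the mean of its probe sets (-0.35, adjusted p = 0.286).

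Of the 10 E2F and DP factors, 6 fell and 1 rose in CD4+ T cells against PreMegE cells, and 7 fell and 0 rose against both MPP and HSC. E2f8, an atypical repressive E2F, was at 4.89 in CD4+ T cells, 10.77 in PreMegE cells, 8.32 in MPP and 9.36 in HSC. It fell by 5.87 ± 0.27 in CD4+ T cells against PreMegE cells and rose by 2.45 ± 0.24 in PreMegE cells against MPP and by 1.40 ± 0.24 against HSC. Its next brightest probe set gave -0.22 (adjusted p = 0.426) in CD4+ T cells against PreMegE cells and 0.41 (adjusted p = 0.0825) in PreMegE cells against HSC. E2f7, its relative, fell by 3.90 ± 0.23 in CD4+ T cells and by 1.85 ± 0.20 in PreMegE cells against HSC. E2f2, an activating E2F, fell by 1.09 ± 0.16 in PreMegE cells against HSC, where its next brightest probe set gave 0.20. In PreMegE cells 3 rose and 3 fell against MPP and 1 rose and 4 fell against HSC. In MPP against HSC 0 rose and 2 fell, E2f8 (-1.04 ± 0.25, adjusted p = 0.0134) and E2f7 (-0.74 ± 0.21, adjusted p = 0.031). The E2f8 call ended without MPP replicate 2 (adjusted p = 0.0506) or 3 (0.0514) and on its next brightest probe set (-0.28, adjusted p = 0.418), and that of E2f7 without any 1 MPP array (0.0689 to 0.13) or HSC replicate 2 (0.116) or 3 (0.109).

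**Figure D5:**
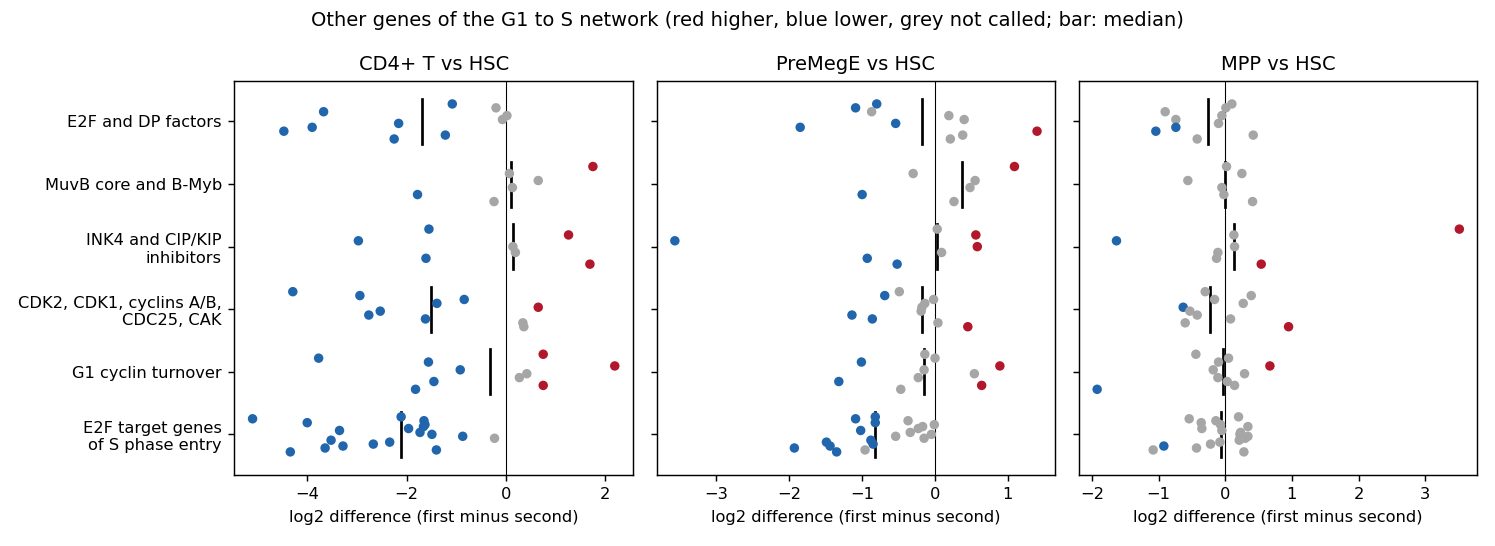
Log2 differences of the 62 measured genes of 6 lists in CD4+ T cells, PreMegE cells and MPP, each against HSC, with 1 point per gene and a bar at the median of each list. Red and blue mark genes called higher and lower; 18 of 19 E2F target genes are blue in CD4+ T cells, with a median of -2.11, against 10 in PreMegE cells and 1 in MPP.

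Inhibitors of the cyclin kinases split within each comparison. INK4 proteins block CDK4 and CDK6, and CIP/KIP proteins bind cyclin and kinase together. Of 7 measured, 2 rose and 3 fell in CD4+ T cells against each marrow population. In PreMegE cells 1 rose and 4 fell against MPP and 2 rose and 3 fell against HSC, and in MPP 2 rose and 1 fell against HSC. In CD4+ T cells Cdkn2d (p19 INK4d) rose by 2.21 ± 0.17 against PreMegE cells and by 1.69 ± 0.18 against HSC, and Cdkn1b (p27) by 1.26 ± 0.20 against HSC. Cdkn1c (p57), a regulator of stem cell quiescence, fell by 2.97 ± 0.25 in CD4+ T cells, 3.57 ± 0.21 in PreMegE cells and 1.63 ± 0.23 in MPP against HSC. Its mean in PreMegE cells, 2.97, lies under the lower quartile over genes there (3.32), so the signal may not be above background and that difference gives no exact fold. Cdkn1a (p21) rose by 3.51 ± 0.32 in MPP against HSC. It fell by 5.06 ± 0.36 in CD4+ T cells and by 3.47 ± 0.30 in PreMegE cells against MPP.

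Among 10 measured genes of CDK2, CDK1, their cyclins and activators, 7 fell and 1 rose in CD4+ T cells against PreMegE cells, 8 fell and 2 rose against MPP, and 7 fell and 1 rose against HSC. Ccna2, the S phase cyclin A2, changed by -3.81 ± 0.30, -3.99 ± 0.31 and -4.29 ± 0.31 in these comparisons, and the mitotic cyclin Ccnb2 by -2.94 ± 0.27 against HSC. On its next brightest probe set Ccna2 was not called against PreMegE cells (-0.55, adjusted p = 0.127). Over the alternatives described below, its difference ranged from -4.66 to -1.08 against MPP and from -4.96 to -1.05 against HSC. In PreMegE cells 2 rose and 4 fell against MPP and 1 rose and 3 fell against HSC, led by Cdk1 (-1.14 ± 0.17). In MPP 1 rose, the assembly factor Mnat1 (0.95 ± 0.17), and 1 fell.

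Genes of G1 cyclin turnover and of the MuvB complex, which works with pocket proteins, moved both ways. Of 10 turnover genes, 2 rose and 3 fell in CD4+ T cells against PreMegE cells, 2 rose and 4 fell against MPP, and 3 rose and 5 fell against HSC. Cks1b, the cofactor of the SKP2 ubiquitin ligase, changed by -3.77 ± 0.17, -3.82 ± 0.18 and -3.77 ± 0.18, while the cullin Cul3 rose by 2.19 ± 0.22 against HSC, with -0.13 on its next brightest probe set. In PreMegE cells 1 rose and 2 fell against MPP, with Skp2 higher by 1.44 ± 0.41, and 2 rose and 2 fell against HSC, with the kinase Gsk3b lower by 1.32 ± 0.21. That call ended on the next brightest probe set of Gsk3b (-0.27, adjusted p = 0.408) and on the mean of its probe sets (-0.20, adjusted p = 0.465). In MPP against HSC 1 rose and 1 fell, the one that fell being Skp2 (-1.92 ± 0.44, adjusted p = 0.00892). The Skp2 call in PreMegE cells against MPP ended without MPP replicate 3 (1.26, adjusted p = 0.062) and on its next brightest probe set (1.07, adjusted p = 0.0737).

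Of 6 genes of the MuvB core and B-Myb, 1 rose and 2 fell in CD4+ T cells against PreMegE cells, 2 rose and 2 fell against MPP, and 1 rose and 1 fell against HSC. In PreMegE cells 2 rose and 1 fell against MPP and 1 rose and 1 fell against HSC, and in MPP 0 rose and 0 fell. Mybl2, an E2F target that drives mitotic genes, fell by 1.78 ± 0.20 in CD4+ T cells and by 1.00 ± 0.16 in PreMegE cells against HSC, whereas the core subunit Lin37 rose by 1.09 ± 0.16 in PreMegE cells against HSC.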

How the data were processed

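RNA was measured on 12 arrays, and the deposited values are linear intensities that the authors made with RMA, per the submitters' processing notes; its settings are not given in the sources used here. Of 45101 probe sets, 64 controls were left out, 34945 carried a single gene symbol, and the one with the highest mean log2 value over the 12 arrays stood for each of 18193 genes. Log2 values were fitted with limma 3.58.1 in R 4.3.3 (with the package data.table, version 1.17.8), with 1 mean per population over all 12 arrays, eBayes and two-sided tests adjusted by Benjamini-Hochberg, and the fit was tested on simulated data. A second fit took all 45037 probe sets. The number of arrays limits the precision. No block was used, because the labels do not say that replicate numbers pair samples. Deviations of same-numbered replicates from their population means correlated at r of -0.12 to 0.41 (15 pairs, 3 over 0.1). The highest r was that of PreMegE and HSC replicate 3. All 10 members are named, and from each list up to 2 called genes with the largest rise and up to 2 with the largest fall per comparison. The members and lists were chosen with earlier results of these data known. Alternatives were quantile and cyclic loess normalization, other probe sets, a replicate block and leaving out arrays. Of the genes in the pathway and marker lists, 8 were not analysed here.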

Additional observations from a re-analysis of the deposited data

Results flagged for a closer look

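Cdk4 had 1 PreMegE array apart from the other 3, with replicate 1 at 9.88 against 10.26, 10.30 and 10.30 on the log2 scale. The gap to its nearest neighbour was 0.906 of the range of the 4 arrays, above Dixon's 95% critical value for 4 values. Each of the 10 members was examined in this way in PreMegE cells, and chance passes that value in about 1 of 20 groups. PreMegE replicate 1 was also lowest of the PreMegE arrays on the other Cdk4 probe sets. It was at 9.61 against 9.94 to 9.98 on the second, and at 8.49 against 9.03 to 9.21 on the dimmest. The cause was not tested.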

How the results depend on the processing

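The fits gave 1254 values for the 60 member results under 21 alternatives, of which 1161 kept their direction and side of the threshold, 31 lost a call, 21 gained one and 41 changed sign, 4 of these for a call. Of the 31 member calls, 17 held under all alternatives run and 24 under all but another choice of probe set; those that ended without 1 array are given in the report, and the cause was not tested. The 4 calls that changed sign did so on the next brightest probe set, Ccnd3 in PreMegE cells against MPP (0.77) and HSC (0.64), Rbl2 in PreMegE cells against HSC (-0.02) and Ccne1 in CD4+ T cells against HSC (0.06). Differences that were not called changed sign as follows. With the next brightest probe set they were Ccnd1 0.48 in MPP against HSC, Ccnd2 0.00 in MPP against HSC, Rb1 0.38 in MPP against HSC, Rbl1 1.00 in MPP against HSC, Rbl2 -0.08 in MPP against HSC, Rb1 -0.33 in PreMegE cells against HSC, Rb1 -0.71 in PreMegE cells against MPP, Rb1 -0.23 in CD4+ T cells against HSC, Ccne1 0.29 in CD4+ T cells against MPP, Rb1 -0.61 in CD4+ T cells against MPP, Ccne1 0.91 in CD4+ T cells against PreMegE cells, Rb1 0.10 in CD4+ T cells against PreMegE cells, Rbl1 0.01 in CD4+ T cells against PreMegE cells. With the mean of all probe sets they were Ccnd1 0.03 in MPP against HSC, Rb1 0.19 in MPP against HSC, Rbl1 0.05 in MPP against HSC, Rb1 -0.03 in PreMegE cells against HSC, Rb1 -0.22 in PreMegE cells against MPP, Rb1 -0.05 in CD4+ T cells against HSC, Rb1 -0.24 in CD4+ T cells against MPP, Ccne1 0.35 in CD4+ T cells against PreMegE cells. With quantile normalization they were Cdk6 -0.01 in MPP against HSC, Ccne1 0.09 in PreMegE cells against MPP, Rbl1 0.00 in PreMegE cells against MPP. With cyclic loess normalization they were Cdk6 -0.03 in MPP against HSC, Ccne1 0.01 in PreMegE cells against MPP. With each array left out in turn the ranges were Cdk6 -0.04 to 0.10 in MPP against HSC, Rb1 -0.09 to 0.09 in MPP against HSC, Rbl2 -0.03 to 0.26 in MPP against HSC, Ccne1 -0.15 to 0.01 in PreMegE cells against MPP, Rbl1 -0.24 to 0.08 in PreMegE cells against MPP, Rb1 -0.08 to 0.35 in CD4+ T cells against HSC, Rb1 -0.07 to 0.36 in CD4+ T cells against MPP, Rb1 -0.34 to 0.09 in CD4+ T cells against PreMegE cells, and with replicate 1 the lone array of HSC Rb1 was 0.02 in MPP against HSC. Of 886 values for the 43 named differences of other genes, 859 kept direction and call, 24 lost the call and 3 changed sign on the next brightest probe set, E2f8 (0.19) and Cul3 (-0.13) in CD4+ T cells against HSC and E2f2 (0.20) in PreMegE cells against HSC. The count of members called in MPP against HSC was 2 with the replicate block, which added Ccne2 (-0.93, adjusted p = 0.0131), 0 where replicate 1 alone stood for HSC, and 0 to 1 with an array left out. Of the other G1 to S genes, 3 were called in MPP against HSC with that lone array, assumed to vary like the other populations, and 5 to 12 with an array left out. On the next brightest probe set, which only 44 of the 62 genes have, 19, 27 and 26 were called in CD4+ T cells against PreMegE cells, MPP and HSC, 22 and 14 in PreMegE cells against MPP and HSC, and 4 in MPP against HSC. In PreMegE cells against MPP, 40.9% of calls over all genes were higher, and 51.3% after quantile normalization, which moved the median of all genes by 0.11. Against HSC the share in PreMegE cells went from 41.2% to 50.8%. In CD4+ T cells it went from 43.7% to 51.5% against MPP, 45% to 51.7% against HSC and 49.3% to 49.9% against PreMegE cells. In MPP against HSC it went from 56.4% to 50%.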
